A study of Mus musculus with 15 samples.

Results

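The proteasome genes of the mouse were described here across 4 groups of brain RNA-seq libraries. They were chosen as the rows whose symbol begins with Psm, then a letter from a to g and a number, leaving out the inducible active-site genes Psmb8 and Psmb9; 48 of 21878 rows met this rule, and no measured value entered it. Of the 48 genes, 46 reached at least 1 FPKM in at least 3 libraries and were tested. The other 2, Psma8 and Psmb11, were listed below that level. FPKM is a density of reads that is corrected for the length of a gene and the depth of its library, so levels of different genes can be set side by side on this scale.

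The proteasome is the large protease that removes proteins tagged with ubiquitin, and in the brain it turns over synaptic and misfolded proteins. Its 20S core is a barrel of alpha and beta subunits, 3 of which carry the active sites in the constitutive form. The 19S regulatory particle, with its ring of ATPases and its non-ATPase lid and base subunits, recognises ubiquitin, removes it and threads the substrate into the core. PA28 and PA200 are alternative caps that open the core without ubiquitin. Interferon and activated immune cells are known to raise PA28 alpha, PA28 beta and the inducible active sites, which together favour peptides for antigen presentation.

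The libraries came from the prefrontal forebrain cortex of mice that entered the study at 8 months of age. The tissue was taken after 3 months on nicotine or water and the behaviour tests. DKO-N (3 libraries) was from Presenilin 1/2 double knockout mice (PS1/PS2 DKO) with nicotine at 100 μg/ml in the drinking water for 3 months, and DKO-B (4 libraries) was from the same genotype on water. WT-N (4 libraries) and WT-B (4 libraries) were wildtype C57BL6/J mice on nicotine and on water. The series calls the knockout conditional. The sources used here do not give the promoter or cell type that drives the deletion, the sex of the mice, or whether each library was a single mouse, so p-values measure the spread between libraries.

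Each library held between 16334904 and 19469215 reads in genes. In the smallest library, 1 FPKM stood for 23.6 reads of a proteasome gene of median length. The targeted gene Psen2 measured 1.36 to 1.76 FPKM in DKO-N, 1.29 to 1.72 in DKO-B, 5.71 to 7.05 in WT-N and 5.44 to 7.14 in WT-B, so the genotype labels held in every library. The summed FPKM of 4 genes of the Y chromosome (Uty, Kdm5d, Ddx3y and Eif2s3y) did not follow genotype. It was 0.233 in DKO-N replicate 2 and 0.0909 to 0.144 in the 4 WT-N libraries, against 24.3 or more in each library of DKO-B and WT-B. DKO-N replicates 1 and 3 were not low, with Ddx3y alone at 12.9 and 13.1 FPKM. Nicotine and this Y-linked difference cannot be told apart in the wildtype mice. The difference also runs between DKO-N and WT-N and, through DKO-N replicate 2, enters DKO-N against DKO-B. DKO-B against WT-B is free of it. Summed markers of microglia, the immune cells of the brain, were 696 to 791 FPKM in DKO-N and 718 to 814 in DKO-B, against 202 to 228 in WT-N and 207 to 232 in WT-B. Of the liver genes that the dissection should not hold, Alb, Apoa1 and Serpina1a stayed under 1 FPKM in every library. Summed with Ttr, the other gene of that list, they reached 0.867 to 3.22 FPKM in DKO-N and 0.942 to 24.8 in DKO-B. The sums were 1.11 to 2.03 FPKM in WT-N and 3.26 to 8.23 in WT-B, so the level of Ttr was uneven between libraries. In bulk tissue, a change in the number of cells of a type and a change in RNA per cell cannot be told apart.

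The proteasome was transcribed at a high and even level. Summed over the 48 genes it took 2163 ± 67.4 FPKM in DKO-N (SD, n = 3), 2239 ± 87.0 in DKO-B, 2111 ± 51.5 in WT-N and 2118 ± 67.5 in WT-B (SD, n = 4 each), which was 0.685% to 0.742% of the FPKM total of a library. The highest level over the 15 libraries was that of Psmc5 (127 FPKM), a 19S ATPase, followed by Psmb4 (106 FPKM), a structural beta subunit, and Psmb7 (99.4 FPKM), which carries the trypsin-like site. The 6 ATPases ran from 46.1 to 127 FPKM, the 4 structural beta subunits from 60.2 to 106 FPKM and the 11 non-ATPase subunits from 20.7 to 76.0 FPKM. Of the assembly chaperones, which leave the particle once it is built, 6 of 7 lay below all of these subunits. Psmg1 to Psmg4 lay between 6.495 and 12.6 FPKM, and Psmd9 and Psmd10 at 9.34 and 8.42 FPKM. The other, Psmd5, at 21.3 FPKM, was level with the lowest non-ATPase subunit, Psmd11.

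**Figure D1:**
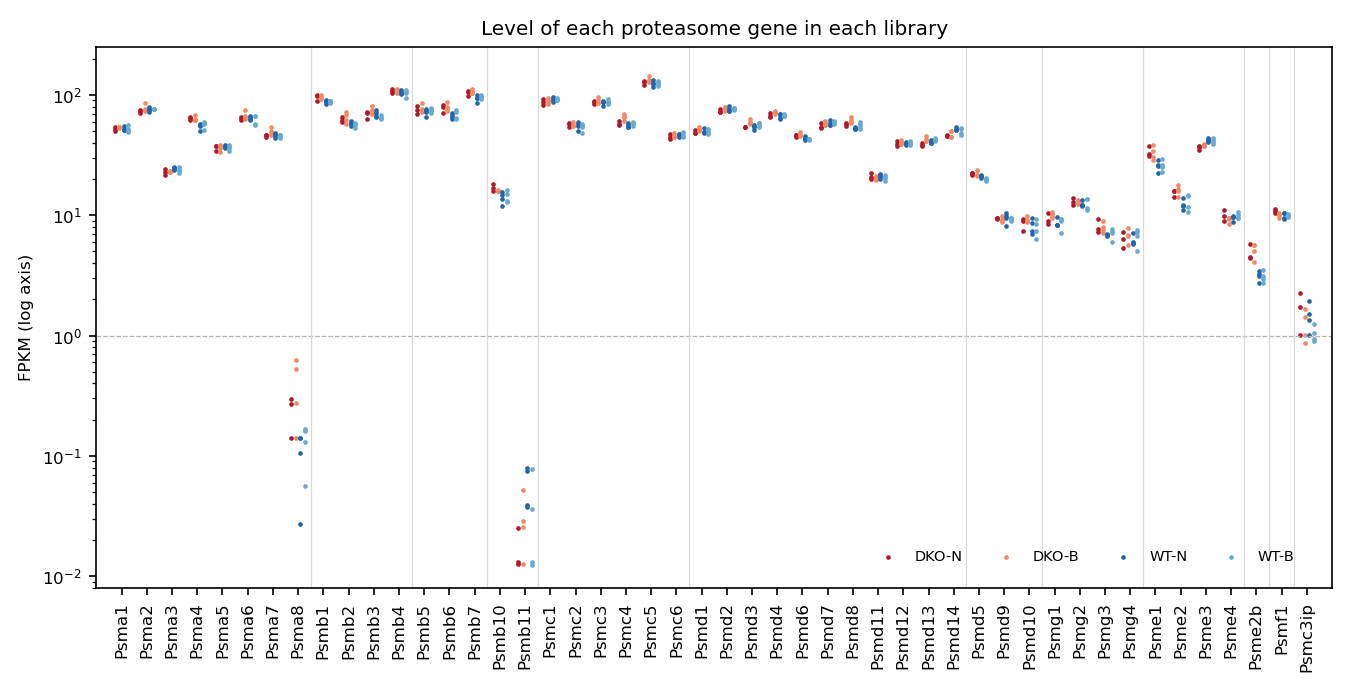
FPKM of each of the 48 genes (log axis) in each of the 15 libraries, 1 point per library, with genes ordered by role and role groups parted by grey lines; the dashed line is 1 FPKM. Points of a gene lie close together for the core and 19S subunits, Psmb11 and Psma8 lie below 1 FPKM in every library, and Psme1, Psme2 and Psme2b show the DKO points above the WT points.

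Psma8 and Psmb11 are alternative core subunits known from testis and from thymus. Psma8 averaged 0.237 ± 0.084 FPKM in DKO-N, 0.390 ± 0.222 in DKO-B, 0.104 ± 0.054 in WT-N and 0.129 ± 0.051 in WT-B, on 1 to 20 reads per library. Psmb11 had 1 to 6 reads per library. Psmc3ip carries the name of a proteasome subunit but is known as a cofactor of meiotic recombination; it averaged 1.33 FPKM and was not called in any comparison.

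Between the genotypes on water, 13 of the 46 tested proteasome genes rose in DKO-B relative to WT-B, 1 fell and 32 did not pass the test. The background over all 12728 tested genes was 25.5% called higher and 12.4% called lower, so the share of proteasome genes that rose, 28.3%, was near that of genes in general. The test was limma on log2(FPKM + 1), a scale that shrinks changes of weakly expressed genes, and a call means a Benjamini-Hochberg adjusted p under 0.05 over all tested genes. The median log2 change of the 46 genes was 0.07, against 0.05 for all tested genes. When library totals were rescaled by the median of gene ratios, 5 proteasome genes were called higher and 2 lower, beside a background of 19.1% higher and 18.4% lower. The libraries of the groups did not overlap for 9 higher and 2 lower proteasome genes, beside backgrounds of 24.0% and 12.5%.

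With nicotine in both genotypes, 8 proteasome genes rose in DKO-N relative to WT-N, 2 fell and 36 did not pass, beside backgrounds of 24.6% called higher and 11.0% called lower. Their median log2 change was 0.03, against 0.06 for all tested genes. After the same rescaling 3 were called higher and 6 lower (backgrounds 16.8% and 17.4%). The groups did not overlap for 8 higher and 2 lower genes, beside 25.8% and 11.8%. The 2 genotype comparisons share no library, only the fitted estimate of spread. In both, 7 genes were called higher (Psma4, Psmb1, Psmb6, Psmb7, Psme1, Psme2 and Psme2b) and 1 lower (Psme3), 0 moved in opposite directions, and 30 were called in neither. That is 15.2% higher in both and 2.17% lower in both, against 18.1% and 8.44% of all tested genes, of which 0 moved in opposite directions too.

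**Figure D2:**
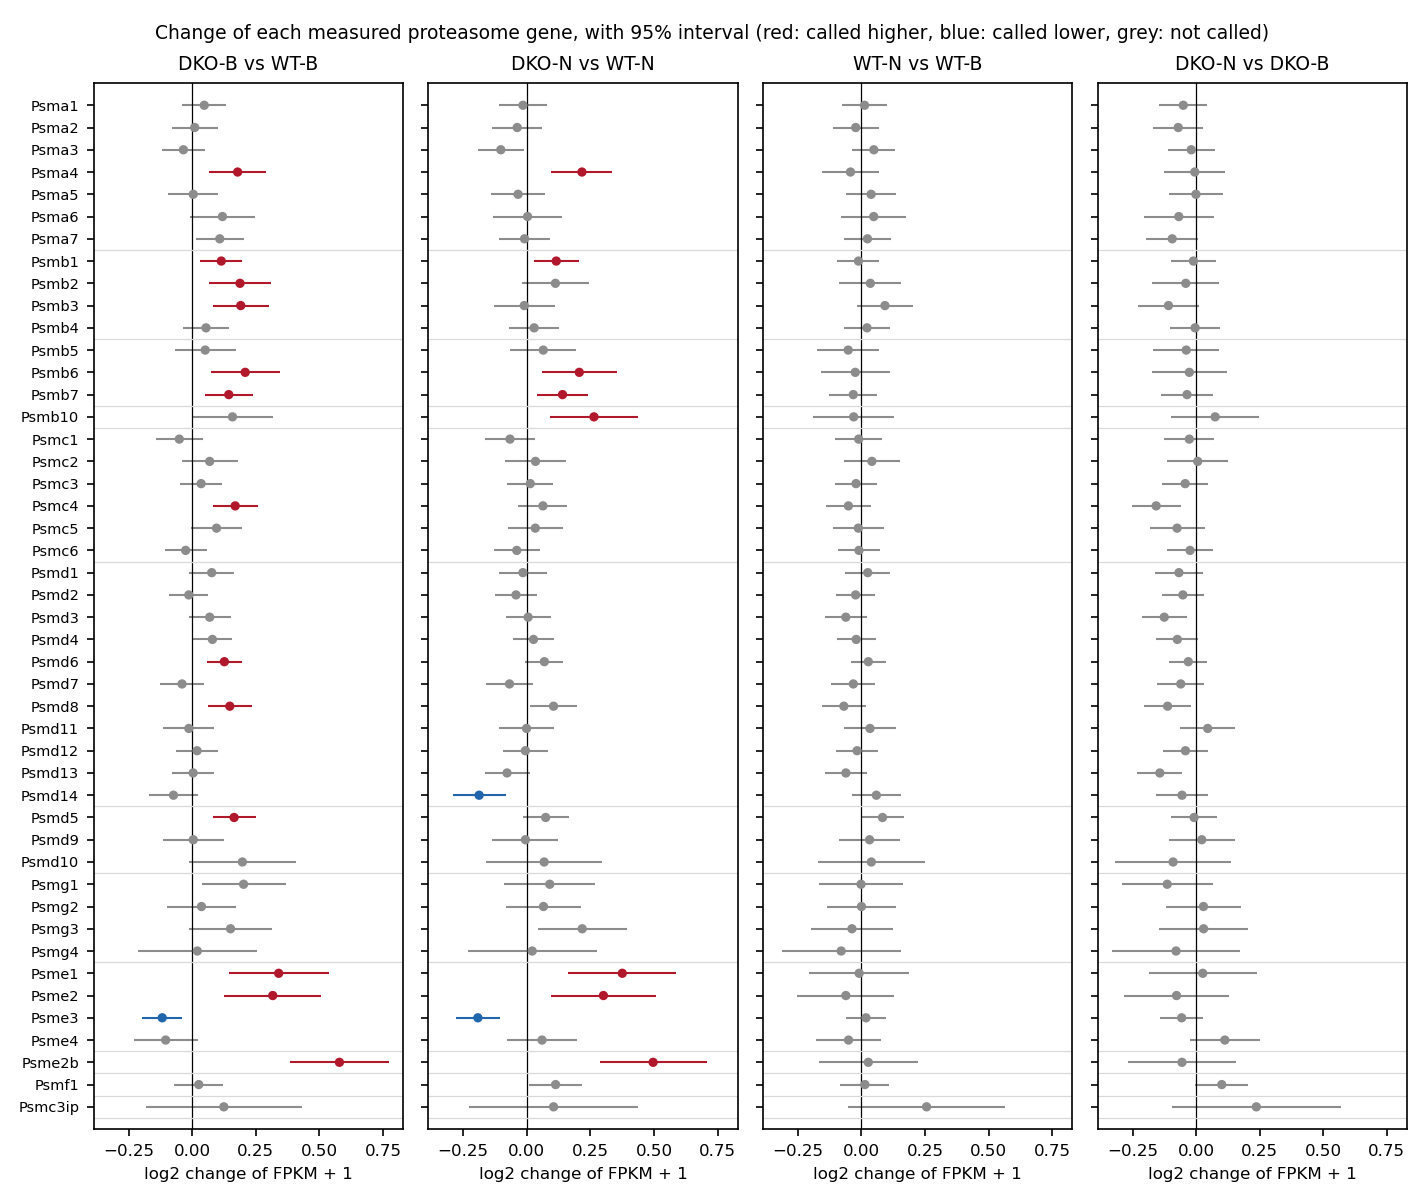
log2 change of FPKM + 1 for the 46 tested genes, with 95% intervals, in 4 comparisons (first group named minus the second); red marks genes called higher, blue called lower, grey not called. Most estimates lie near 0, Psme2b, Psme1 and Psme2 lie farthest to the right in both genotype panels, and neither nicotine panel holds a coloured point.

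The largest rises among the proteasome genes in both genotype comparisons were those of 3 genes of the PA28 cap, while a further PA28 gene fell by a smaller step. Psme1 and Psme2 encode PA28 alpha and PA28 beta, which form the cytoplasmic, interferon-inducible ring; Psme3 encodes PA28 gamma, which forms a nuclear ring of its own. Psme1, Psme2 and Psme2b, a near-copy of Psme2, rose in DKO relative to WT on water and on nicotine, and Psme3 fell in both. The ratio of Psme3 to Psme1 was 1.104 ± 0.142 in DKO-N (SD, n = 3) and 1.17 ± 0.136 in DKO-B, against 1.66 ± 0.196 in WT-N and 1.62 ± 0.134 in WT-B (SD, n = 4 each).

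Psme1, on chromosome 14 from 55578494 to 55581527 (GRCm38), had 38.6, 30.3, 28.9 and 34.2 FPKM in the DKO-B libraries, against 25.2, 29.3, 25.9 and 22.7 FPKM in the WT-B libraries. Only the lowest DKO-B library fell below the highest WT-B library. Its log2 change was 0.34 (SE 0.09; limma adjusted p 0.00832). On nicotine it had 31.2, 32.0 and 37.3 FPKM in DKO-N, against 22.3, 25.9, 28.6 and 25.6 FPKM in WT-N, without overlap. There the log2 change was 0.38 (SE 0.10; limma adjusted p 0.00795), and leaving out DKO-N replicate 3, its highest library, gave 0.30 with a limma adjusted p of 0.0556.

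Psme2, its partner in the same ring, lies close by on chromosome 14, from 55587440 to 55591101. It had 18.0, 16.04, 14.2 and 16.4 FPKM in DKO-B, against 14.4, 14.6, 10.7 and 11.7 FPKM in WT-B. WT-B replicates 1 and 2 lay above the lowest DKO-B library. The log2 change was 0.32 (SE 0.09; limma adjusted p 0.0106). On nicotine it had 14.1, 15.8 and 15.8 FPKM in DKO-N, against 12.1, 13.8, 11.8 and 11.0 FPKM in WT-N, without overlap. That change of 0.30 (SE 0.10; limma adjusted p 0.0237) was the less firm of the pair: the adjusted p was 0.0617 after rescaling, and between 0.0501 and 0.084 without DKO-N replicate 2, DKO-N replicate 3, WT-N replicate 3 or WT-N replicate 4, each left out alone.

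Psme2b, on chromosome 11 from 48945345 to 48946410, is annotated as a second PA28 beta gene. Over the 720 bases of coding sequence in the GENCODE M21 transcripts (GRCm38), Psme2b and Psme2 share 715 bases and differ at 5, with identical runs of up to 311 bases, so a read cannot always be assigned to either. The stretch below, coding bases 424 to 543 of each gene on its own strand (the minus strand for both), holds 3 of the 5 differences, in capitals, and shows how little separates their reads.
Psme2: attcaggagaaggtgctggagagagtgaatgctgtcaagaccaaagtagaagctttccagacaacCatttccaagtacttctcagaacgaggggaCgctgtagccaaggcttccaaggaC
Psme2b: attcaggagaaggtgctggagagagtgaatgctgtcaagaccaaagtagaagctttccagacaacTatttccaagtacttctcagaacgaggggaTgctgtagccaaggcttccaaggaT
Of all 50-base windows in Psme2b transcripts, 68.7% also occur in Psme2; of those in Psme2, 28.3% occur in Psme2b.

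Psme2b was counted at a lower level than Psme2 and differed more between genotypes. It had 5.61, 5.63, 4.08 and 5.05 FPKM in DKO-B, against 2.73, 3.47, 2.94 and 3.12 FPKM in WT-B. Every DKO-B library lay above every WT-B library, and the log2 change was 0.58 (SE 0.09; limma adjusted p 0.000109). On nicotine the values were 5.71, 4.50 and 4.37 FPKM in DKO-N, against 3.15, 3.25, 2.75 and 3.41 FPKM in WT-N, again without overlap, with a log2 change of 0.50 (SE 0.10, adjusted p 0.000992 by limma). These values rest on 53 to 110 reads per library. Because of the shared sequence, part of the Psme2b signal may belong to Psme2 or the reverse, and the sources used here do not say how such reads were counted. Psme2b also shares 41 exon bases on the same strand with 9930111J21Rik1, which stayed under 1 FPKM in every library.

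Psme3, on chromosome 11 from 101316213 to 101323537, was the only proteasome gene called lower on water. It had 38.8, 37.7, 37.9 and 38.3 FPKM in DKO-B, against 39.3, 43.8, 42.1 and 40.9 FPKM in WT-B. The DKO-B libraries were tightly grouped and all below the lowest WT-B library, by a margin that was small beside the WT-B spread. The log2 change was -0.12 (SE 0.04; limma adjusted p 0.02), and the adjusted p was 0.0506 without DKO-B replicate 2, 0.0713 without WT-B replicate 2 and 0.0514 without WT-B replicate 3. On nicotine it had 37.1, 37.9 and 35.1 FPKM in DKO-N, against 42.5, 40.7, 41.4 and 43.6 FPKM in WT-N, without overlap, with a log2 change of -0.19 (SE 0.04, adjusted p 0.00145 by limma). Psme4, which encodes the PA200 cap, was not called: 9.97 ± 1.11 FPKM in DKO-N (SD, n = 3), 9.12 ± 0.476 in DKO-B, 9.497 ± 0.456 in WT-N and 9.88 ± 0.513 in WT-B (SD, n = 4 each). The same held for Psmf1, which encodes the inhibitor PI31 and lay between 9.86 and 10.9 FPKM as group means.

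Microglial markers also differed between the genotypes. All 10 markers on the list were called higher in DKO-B than in WT-B and 8 of 10 in DKO-N than in WT-N; each reached 1 FPKM in every group. Astrocyte markers were called higher in 8 of 8 in both comparisons, oligodendrocyte markers in 6 of 8 on water and 4 of 8 on nicotine, and endothelial markers in 4 of 6 and 2 of 6. Neuronal markers were called lower in 5 of 10 in both, with 2 of 10 higher on water and 1 of 10 higher on nicotine. These marker counts stand beside 25.5% called higher and 12.4% lower of all tested genes on water, and 24.6% and 11.0% on nicotine. Psmb8 and Psmb9, the inducible active sites that the selection left out, summed to 6.11 to 10.3 FPKM in DKO-N and 8.22 to 9.76 in DKO-B, against 3.43 to 4.21 in WT-N and 3.34 to 4.05 in WT-B. Psmb9 alone overlapped on nicotine, with 1.27 to 3.62 FPKM in DKO-N against 1.24 to 1.74 in WT-N. The part of cell make-up in the PA28 result was not tested. Markers of striatum, a region next to the dissected cortex, also differed on water, with 5 of 8 called higher and summed levels of 227 to 387 FPKM in DKO-B against 156 to 226 FPKM in WT-B, and 0 of 8 called between DKO-N and WT-N; their part in the results on water was not tested.

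**Figure D3:**
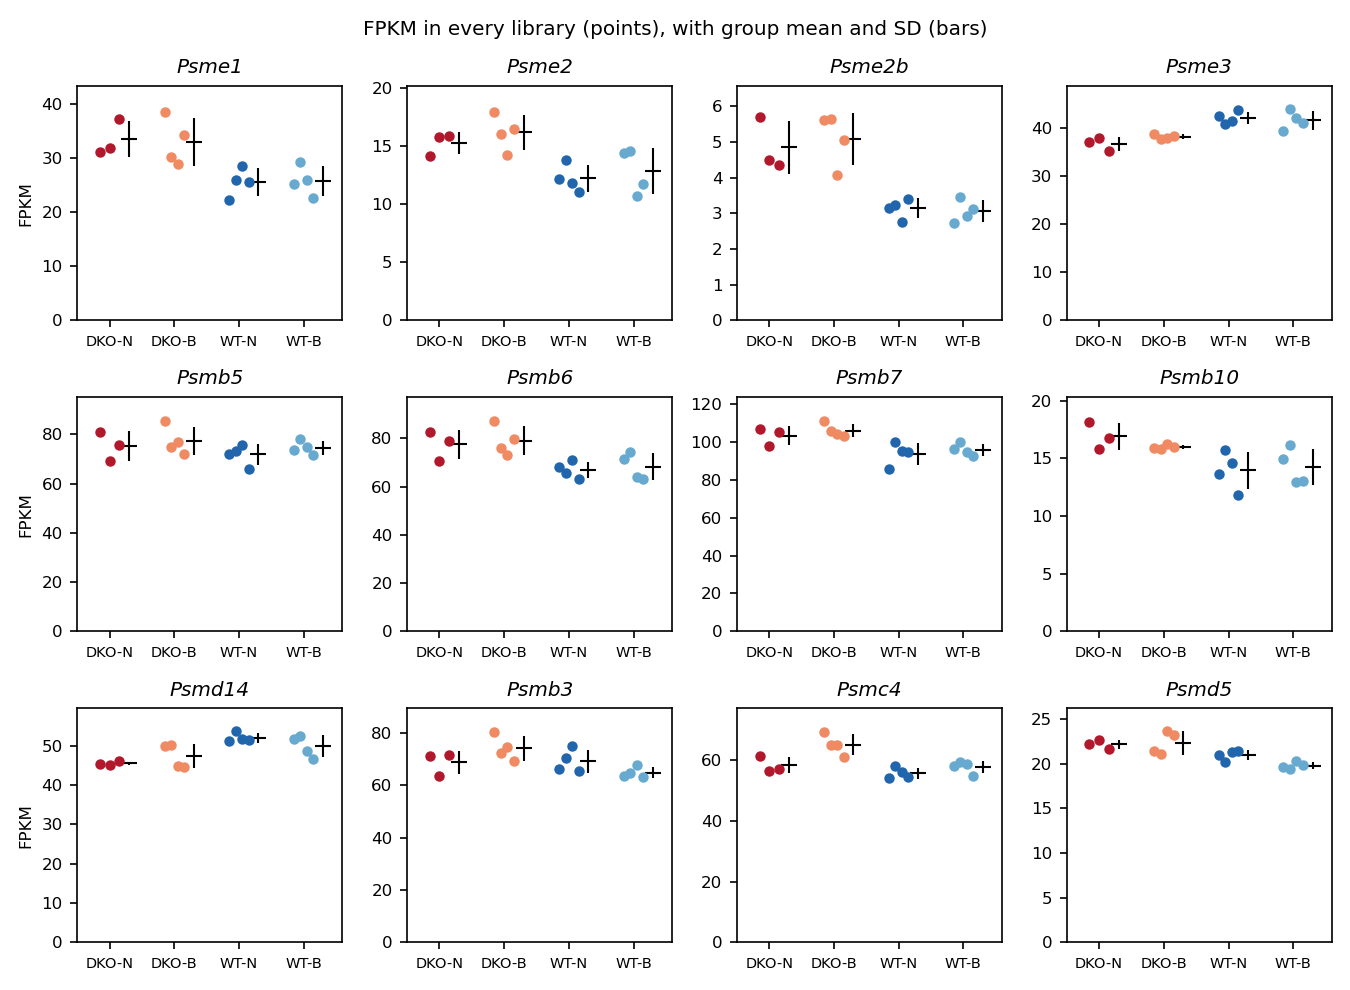
FPKM in every library (coloured points, replicates in number order) for 12 proteasome genes, with group mean and SD in black and each vertical axis starting at 0. Psme1, Psme2 and Psme2b are higher and Psme3 lower in both DKO groups than in the WT groups, while Psmb5 overlaps across all 4 groups.

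Among the active-site subunits of the core, 2 of the 3 constitutive ones rose in both genotype comparisons, by small steps, and the other did not pass the test. Counts by role, here and below, stand beside 25.5% of all tested genes called higher on water and 24.6% on nicotine. With so few genes per role, nothing particular to a role is read from them. Psmb6, which carries the caspase-like site, had 87.1, 76.2, 73.0 and 79.9 FPKM in DKO-B, against 71.6, 74.6, 64.0 and 63.1 FPKM in WT-B. It had 82.8, 70.8 and 79.1 FPKM in DKO-N, against 68.2, 65.9, 70.9 and 63.2 FPKM in WT-N. The groups overlapped by 1 library in each comparison, with log2 changes of 0.21 on water (SE 0.06; limma adjusted p 0.017) and 0.21 on nicotine (SE 0.07; limma adjusted p 0.0291). After rescaling, the adjusted p was 0.0501 on water and 0.103 on nicotine.

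Psmb7, with the trypsin-like site, had 111, 105, 104 and 103 FPKM in DKO-B, against 96.1, 99.7, 94.5 and 92.5 FPKM in WT-B, without overlap. With nicotine the values were 107, 97.8 and 105 FPKM in DKO-N, against 85.5, 99.6, 94.98 and 94.5 FPKM in WT-N, with DKO-N replicate 2 below the highest WT-N library. Its log2 change was 0.14 in both (limma adjusted p 0.0178 on water and 0.0322 on nicotine). After rescaling it was 0.09 with an adjusted p of 0.104 on water and 0.07 with 0.223 on nicotine. On water, leaving out DKO-B replicate 1 or WT-B replicate 4 ended the calls of Psmb6 and Psmb7, with limma adjusted p between 0.0556 and 0.0652, and so did leaving out WT-B replicate 3 for Psmb6 (0.0574). On nicotine, both calls ended without DKO-N replicate 1, DKO-N replicate 3 or WT-N replicate 4, as did that of Psmb6 without WT-N replicate 2 and that of Psmb7 without WT-N replicate 1, with limma adjusted p between 0.0509 and 0.135. The call of Psmb7 on nicotine also ended without an intensity trend (0.0527) and with the compared groups alone (0.0835).

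Psmb5, the chymotrypsin-like site and the main target of proteasome inhibitor drugs, had 85.5, 74.6, 76.8 and 72.1 FPKM in DKO-B, against 73.5, 78.0, 74.8 and 71.4 FPKM in WT-B. It had 81.1, 68.9 and 75.5 FPKM in DKO-N, against 72.1, 73.2, 75.8 and 66.1 FPKM in WT-N. The 4 groups overlapped throughout. Its log2 change was 0.05 on water (95% interval -0.07 to 0.17) and 0.06 on nicotine (-0.07 to 0.19), and 54.1% of its 50-base windows also occur in other annotated genes.

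Psmb10, the inducible form of the trypsin-like subunit, had 18.2, 15.8 and 16.8 FPKM in DKO-N, against 13.7, 15.7, 14.6 and 11.9 FPKM in WT-N. The groups did not overlap, by a narrow margin, and the log2 change was 0.26 (SE 0.08; limma adjusted p 0.019). On water it had 15.9, 15.8, 16.2 and 16.02 FPKM in DKO-B, against 14.9, 16.1, 12.9 and 13.0 FPKM in WT-B, with a log2 change of 0.16 (SE 0.08, adjusted p 0.111 by limma). The DKO-B values were nearly equal, with 3 WT-B libraries below them and 1 among them. Whether the change differed between water and nicotine did not pass its own test (interaction log2 0.11, SE 0.11; limma adjusted p 0.889). The call on nicotine was lost after rescaling (adjusted p 0.0568) and without DKO-N replicate 1 (0.09) or WT-N replicate 4 (0.0622); on water, leaving out WT-B replicate 2 gave 0.22 with a limma adjusted p of 0.0345. Relative to its constitutive counterpart Psmb7, Psmb10 stood at 16.4 ± 0.557% in DKO-N (SD, n = 3) and 15.1 ± 0.616% in DKO-B, against 14.9 ± 1.59% in WT-N and 14.9 ± 1.18% in WT-B (SD, n = 4 each).

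In the structural part of the core, 3 of 4 beta subunits rose on water (Psmb1, Psmb2 and Psmb3) and 1 on nicotine (Psmb1), while 1 of 7 tested alpha subunits, Psma4, rose in both. Of all tested genes, 25.5% were called higher on water and 24.6% on nicotine. Psma4 averaged 64.0 ± 3.05 FPKM in DKO-B against 56.5 ± 3.94 FPKM in WT-B (SD, n = 4 each), and 63.7 ± 2.08 FPKM in DKO-N (n = 3) against 54.7 ± 3.30 FPKM in WT-N (n = 4). Its log2 changes were 0.18 (SE 0.05; limma adjusted p 0.0131, and 0.0599 after rescaling, 0.0515 without WT-B replicate 4) and 0.22 (SE 0.06; limma adjusted p 0.00696). Psmb3 is the structural member with the firmest rise on water: 80.6, 72.3, 74.7 and 69.4 FPKM in DKO-B, against 63.7, 64.8, 67.8 and 63.2 FPKM in WT-B, without overlap, a log2 change of 0.19 (SE 0.05, adjusted p 0.00862 by limma). On nicotine Psmb3 had 71.2, 63.6 and 71.5 FPKM in DKO-N, against 66.4, 70.5, 74.9 and 65.3 FPKM in WT-N, and the 2 groups lay over each other. The remaining alpha subunits (Psma1, Psma2, Psma3, Psma5, Psma6 and Psma7) and Psmb4 were not called in the main test. With 1 library left out, Psma7 was called higher on water without DKO-B replicate 3, and Psma3 lower on nicotine without DKO-N replicate 1. Psmb1 and Psmb2 changed by 0.11 and 0.19 on water; both calls were lost after rescaling (limma adjusted p 0.212 and 0.0614) and without DKO-B replicate 1, DKO-B replicate 2 or WT-B replicate 4, each left out alone (0.0558 to 0.0904), and that of Psmb1 without an intensity trend (0.0513). On nicotine the change of Psmb1 was 0.12 (SE 0.04; limma adjusted p 0.0422), and the call ended after rescaling (0.359) and without DKO-N replicate 1, DKO-N replicate 3, WT-N replicate 1, WT-N replicate 3 or WT-N replicate 4 (0.0628 to 0.191). It also ended without an intensity trend (0.07), with the compared groups alone (0.107) and by limma voom on the recovered reads (0.0576), so that it was lost in 10 of 15 alternatives.

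In the 19S particle, 1 of 6 ATPases and 2 of 11 non-ATPase subunits rose on water, and none of either kind on nicotine. Those that rose were Psmc4, an ATPase of the base, and Psmd6 and Psmd8, which belong to the lid. The share called higher among all tested genes was 25.5% on water and 24.6% on nicotine. Psmc4 had 69.3, 65.0, 65.0 and 60.8 FPKM in DKO-B, against 58.0, 59.3, 58.7 and 54.9 FPKM in WT-B, without overlap; it changed by 0.17 on the log2 scale (SE 0.04; limma adjusted p 0.00449). In DKO-N it had 61.2, 56.3 and 57.0 FPKM, against 54.0, 58.1, 55.9 and 54.5 FPKM in WT-N, with overlap and no call. Psmd6 and Psmd8 changed by 0.13 and 0.15 on water; after rescaling their limma adjusted p were 0.086 and 0.0759. The other ATPases (Psmc1, Psmc2, Psmc3, Psmc5 and Psmc6) and non-ATPase subunits (Psmd1, Psmd2, Psmd3, Psmd4, Psmd7, Psmd11, Psmd12 and Psmd13) were not called on water or on nicotine. After rescaling, Psma3, Psmc1, Psmd7 and Psmd13 were called lower in DKO-N than in WT-N, with log2 changes between -0.17 and -0.13.

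Psmd14, which encodes the lid enzyme that cuts ubiquitin chains from substrates before they enter the core, fell in DKO-N relative to WT-N. It had 45.3, 45.2 and 46.0 FPKM in DKO-N, against 51.1, 53.7, 51.7 and 51.4 FPKM in WT-N. These were tight and separate groups, with a log2 change of -0.19 (SE 0.05, adjusted p 0.00692 by limma). On water it had 50.04, 50.2, 44.8 and 44.7 FPKM in DKO-B, against 51.8, 52.6, 48.6 and 46.7 FPKM in WT-B. DKO-B split into a higher and a lower pair there, and the log2 change of -0.07 (SE 0.05; limma adjusted p 0.22) was not called; after rescaling it was -0.13 with a limma adjusted p of 0.0294. The difference between these changes did not pass its test (interaction log2 -0.11, SE 0.07; limma adjusted p 0.768).

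Of the assembly chaperones, 1 of 3 for the 19S base and 0 of 4 for the 20S core rose on water, and none on nicotine. The background was again 25.5% of all tested genes called higher on water and 24.6% on nicotine. Psmd5, which holds part of the ATPase ring during assembly, had 21.4, 21.1, 23.7 and 23.2 FPKM in DKO-B, against 19.6, 19.4, 20.3 and 19.9 FPKM in WT-B. The groups were separate, with a log2 change of 0.16 (SE 0.04, adjusted p 0.00369 by limma, and 0.0522 after rescaling). In DKO-N it had 22.2, 22.6 and 21.7 FPKM, against 21.01, 20.3, 21.3 and 21.5 FPKM in WT-N, also separate but not called (limma adjusted p 0.194). Psmg1, a 20S chaperone, had a log2 change of 0.20 on water (SE 0.08) that just missed the threshold (limma adjusted p 0.0513). Psmg2, Psmg3, Psmg4, Psmd9 and the X-linked Psmd10 were not called in any comparison of the main test. Psmg1 was called higher on water with a filter at 5 FPKM and with the compared groups alone. It was also called without DKO-B replicate 3, WT-B replicate 1 or WT-B replicate 2, and Psmd10 without WT-B replicate 2. On nicotine Psmg3 was called higher with that filter, the compared groups alone, a replicate block, or without DKO-N replicate 3.

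The changes on water were not spread evenly over libraries. DKO-B replicate 1 was the highest of its group for 31 of the 46 genes, against 28.2% of all tested genes. WT-B replicate 4 was the lowest of its group for 29 of the 46. Shares for the lowest library were not counted over all tested genes. Without DKO-B replicate 1, 9 genes were called higher, and without WT-B replicate 4, 8 genes, against 13 with all libraries. Over all tested genes the shares called higher were then 22.3% and 21.7%, against 25.5% with all libraries. Calls were thus fewer among genes in general as well, but by a smaller part than among the proteasome genes. In the nicotine groups DKO-N replicate 1 was highest for 27 of the 46, against 36.7% of all tested genes, and DKO-N replicate 2 lowest for 28. With all libraries, 8 genes were called higher in DKO-N than in WT-N (24.6% of all tested genes). Without DKO-N replicate 1 or replicate 3, 4 genes were called higher (20.6% and 18.6% of all tested genes). Without WT-N replicate 4, 3 genes were (2542 of the 12728 tested genes). Leaving out DKO-N replicate 2, the DKO-N library low in Y-linked RNA, changed the count less, to 7 (24.2%). Psme2b, Psme1, Psme2, Psmb3 and Psmc4 on water, and Psme2b, Psme3, Psma4 and Psmd14 on nicotine, were called with each of the libraries left out in turn and in every other alternative run, 9 of 24 calls.

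**Figure D4:**
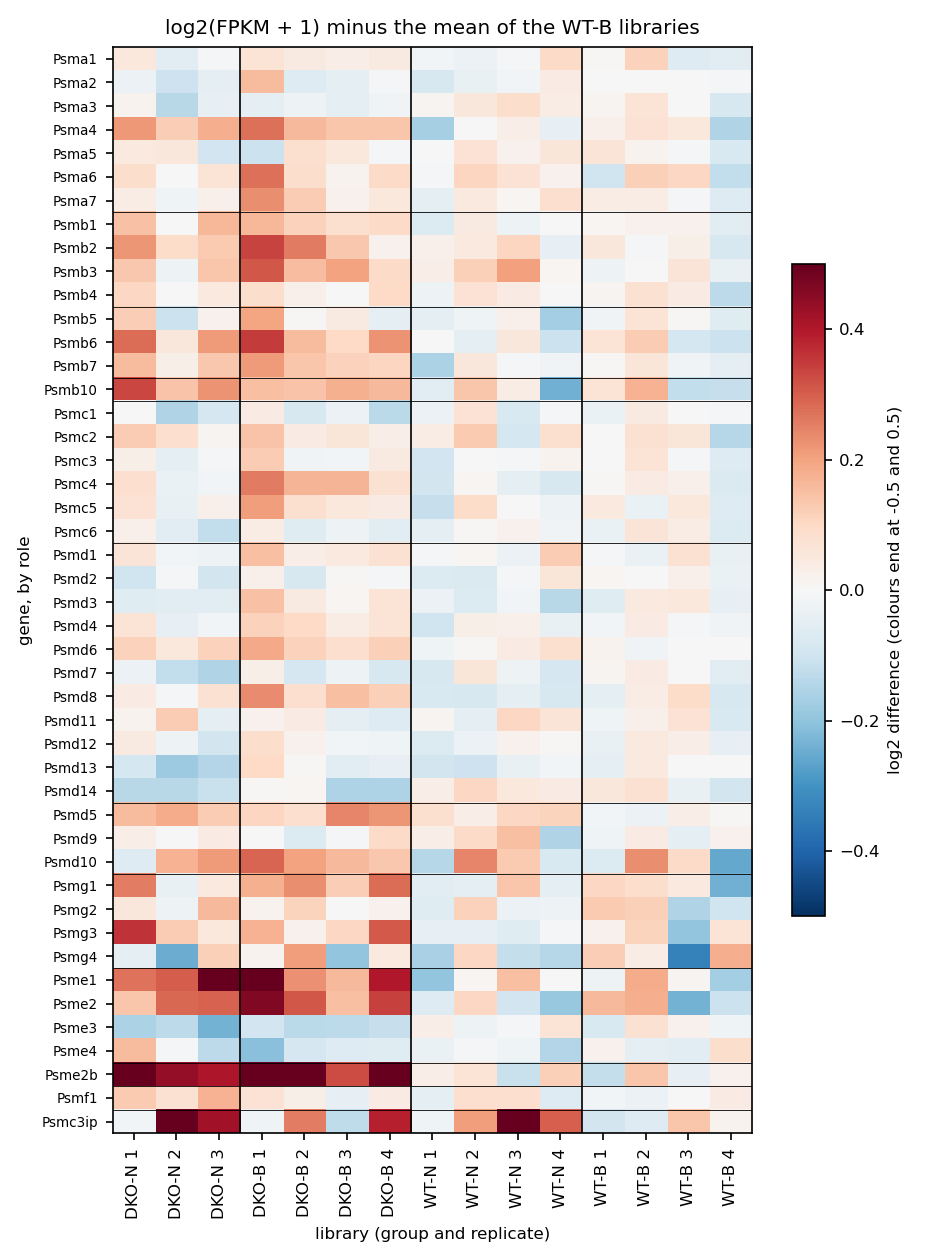
log2(FPKM + 1) of each tested gene in each library, minus the mean of the 4 WT-B libraries (red higher, blue lower, colours end at -0.5 and 0.5), genes ordered by role. DKO-B replicate 1 is red in most rows, WT-B replicate 4 blue in most rows, and Psme1, Psme2 and Psme2b are red and Psme3 blue across the DKO libraries.

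Nicotine moved no proteasome gene past the threshold in either genotype. In WT-N against WT-B, 0 of 46 were called by limma and 0 had an unadjusted p under 0.05, beside backgrounds of 0.0943% called higher, 0.0786% called lower and 8.7% with an unadjusted p under 0.05. The log2 changes ran from -0.08 to 0.26, the highest being that of the low Psmc3ip. Psmd5 had the smallest p, with a log2 change of 0.08 (95% interval -0.00 to 0.17; limma adjusted p 0.586) between the WT-N and WT-B libraries given above. For the PA28 genes the intervals were -0.21 to 0.19 for Psme1, -0.25 to 0.13 for Psme2 and -0.06 to 0.10 for Psme3, so smaller shifts than these bounds were not resolved.

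In DKO-N against DKO-B, 0 of 46 were called and 4 had an unadjusted p under 0.05 (Psmc4, Psmd13, Psmd3 and Psmd8, lower in DKO-N), beside backgrounds of 0.102% called higher, 0.055% called lower and 13.9% with an unadjusted p under 0.05. Log2 changes ran from -0.16 to 0.24, and 36 of the 46 were below 0. Their median was -0.041, against 0.0076 for all tested genes, for which the share below 0 was not counted. Psmc4 had the smallest p, with a log2 change of -0.16 (95% interval -0.25 to -0.06; limma adjusted p 0.158): DKO-N replicate 1 reached 61.2 FPKM, above the lowest DKO-B library, while the other 2 DKO-N libraries stayed below it. For the interaction of genotype and nicotine, 0 genes were called and 1, Psmb3, had an unadjusted p under 0.05 (log2 -0.20, SE 0.08; limma adjusted p 0.657), beside backgrounds of 0.0157% called higher, 0.0% called lower and 6.9% with an unadjusted p under 0.05. These counts of 0 were also 0 by limma voom on the recovered reads. The Y-linked difference runs with nicotine in the wildtype mice, and its part in these values was not tested.

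Around the proteasome, few other genes of the ubiquitin system were called, in either direction. The counts that follow stand beside 25.5% called higher and 12.4% lower of all tested genes on water, and 24.6% and 11.0% on nicotine, and nothing particular to these lists is read from them. Of 7 proteasome partners without a Psm symbol, 1 rose and 1 fell in DKO-B relative to WT-B. Shfm1, a small lid subunit, averaged 75.8 ± 3.56 FPKM in DKO-B against 63.5 ± 4.97 FPKM in WT-B (SD, n = 4 each; log2 change 0.25, limma adjusted p 0.00526). Usp14, the deubiquitinase that sits on the 19S base, averaged 39.3 ± 0.947 FPKM in DKO-B against 45.5 ± 1.56 FPKM in WT-B (log2 change -0.21, limma adjusted p 0.000496) and was called lower on nicotine too. None of 6 ubiquitin genes and E1 enzymes was called on water or on nicotine. Of 11 ubiquitin shuttles and p97 partners, 1 was called higher and 2 lower on water (Ubxn1 0.20; Rad23b -0.14 and Ubqln4 -0.20 on the log2 scale), and 1 higher and 4 lower on nicotine. Of 10 ligases and other ubiquitin enzymes, 1 was called higher and 2 lower on water (Uchl1 0.25; Ube2n -0.19 and Zfand2a -0.18), and 1 higher and 3 lower on nicotine. Uchl1, a deubiquitinase abundant in neurons, was counted at 475 ± 15.4 FPKM in DKO-B against 399 ± 13.5 FPKM in WT-B. In the comparisons of nicotine with water 0 genes of these lists were called.

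Of 7 genes known to control proteasome genes, 3 were called higher and 1 lower on water, and 2 higher and 2 lower on nicotine, beside the same shares of all tested genes. Nfe2l2, a regulator of antioxidant genes that can also raise proteasome genes, averaged 12.4 ± 0.805 FPKM in DKO-B against 6.65 ± 0.284 FPKM in WT-B (SD, n = 4 each), and 13.6 ± 1.08 FPKM in DKO-N (n = 3) against 7.28 ± 0.28 FPKM in WT-N (n = 4). Its log2 change was 0.81 on water (SE 0.05; limma adjusted p 6.61e-09). Nfe2l1, the factor known to restore proteasome genes when the proteasome is blocked, averaged 80.1 ± 1.14 FPKM in DKO-B against 83.0 ± 1.08 FPKM in WT-B and was called lower on nicotine (log2 change -0.10, SE 0.03; limma adjusted p 0.018). Among the subunits of NF-Y, the CCAAT-binding factor, Nfya changed by 0.32, Nfyc by 0.12 and Nfyb by -0.16 on water. In the 250 bases before the start of RefSeq transcripts (GRCm38), searched on both strands, the CCAAT box (CCAAT) stood in 32.6% of the 43 windows of 40 proteasome genes and in 33.8% of 32851 windows of all genes, and the core of the antioxidant response element (TGACNNNGC) in 11.6% and 10.2%; both shares were near those of all genes. The core of the interferon-stimulated element, searched as a pair of GAAA parted by 2 bases, stood in 3 of the 43 windows (Psmb3, Psmd4 and Psmd9), 6.98%, against 2.98% of all windows. Psme1, Psme2 and Psmb10 were not among these 3, and windows were at hand for 40 of the 48 genes. With 3 matches, nothing is read from the difference in share. All motif counts are matches of letters only.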

How the data were processed

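The authors deposited 1 table of FPKM values per library, from TRIzol-extracted RNA and a TruSeq Stranded mRNA preparation, per the labels' protocols. GRCm38.p6 is the build that the submitters' processing notes name; the sources used here give no aligner, counting tool or strand setting. The unit was taken from the values: for all 12728 tested genes (100%) FPKM was a whole multiple of 1 read within 0.02 reads, which gave back reads and depth. Genes overlapping on the other strand (Psmd9 with Gm26745, Psmc3ip with Mlx, Psmb7 with Nek6, Psmd13 with Sirt3, Psmc3 with Slc39a13) are therefore uncertain. Date-like symbols of 27 genes were put back by gene number.

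Genes that reached 1 FPKM in 3 or more libraries were tested as log2(FPKM + 1) with limma 3.58.1 in R 4.3.3, with an intensity trend, all 15 libraries of the 4 groups in 1 fit and no replicate block. The code was tested on simulated reads. Alternatives were rescaling by median of ratios, no filter, a filter at 5 FPKM, a pseudocount of 0.1, no trend, the compared groups alone, a replicate block, limma voom on recovered reads, and each library left out.

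The proteasome genes and ubiquitin lists were chosen with earlier results of these data known. Values in every library are given for the 3 called genes with the largest rise and fall on water, the active sites, PA28 alpha and beta, and the gene with the smallest p where none was called; Psmd14 and Nfe2l1 were added after their values were seen. From each ubiquitin list up to 3 called genes with the smallest p on water are named, and Nfyc is named beside the other NF-Y subunits. Transcript sequences and exons came from GENCODE M21, promoters and gene positions from RefSeq (GRCm38.p6). Python 3.11.15, pandas 2.3.3 and matplotlib 3.10.9 were used. No 2 libraries of a group were identical.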

Additional observations from a re-analysis of the deposited data

Results flagged for a closer look

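In groups of 4 libraries, 1 library stood apart from the other 3 of its group by more than Dixon's 95% critical value in 6 of 138 sets of values (a gene in a group); chance gives about 1 in 20. Psmb1, a structural core subunit, was at 85.0 FPKM in WT-B replicate 4, against 88.9 to 89.5 in the other WT-B libraries. Psmd4, a ubiquitin receptor of the 19S particle, was at 69.8 FPKM in WT-B replicate 2, against 66.9 to 67.2. Psmd8, a lid subunit, was at 53.9 FPKM in WT-N replicate 3, against 52.5 to 52.7 in the other WT-N libraries. Psme4, the PA200 cap, was at 8.41 FPKM in DKO-B replicate 1, against 9.26 to 9.41 in the other DKO-B libraries. The core chaperones Psmg1 and Psmg4 stood apart in WT-N: Psmg1 at 9.61 FPKM in replicate 3, against 8.26 to 8.35, and Psmg4 at 7.16 FPKM in replicate 2, against 5.78 to 5.997.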

How the results depend on the processing

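The 24 calls and a few chosen genes without a call were followed through the alternatives, which gave 474 values. Of these, 414 kept their direction and side of the threshold, 57 lost the call, 1 gained one and 2 changed sign. Calls gained by other proteasome genes, as by Psma3, Psmc1, Psmd7, Psmd13 and Psmd14 under rescaling, are outside these counts. Both sign changes were those of Psmb5 under rescaling by the median of gene ratios, a gene with no call: -0.0027 on water and -0.0010 on nicotine. That rescaling also moved the counts called higher to 5 (DKO-B against WT-B) and 3 (DKO-N against WT-N), the counts called lower to 2 and 6, and the median log2 changes to 0.0191 and -0.0345; the cause was not tested. With 1 library left out, genes called higher ranged from 8 to 16 on water (21.3% to 24.8% of all tested genes in the same fits) and from 3 to 7 on nicotine (18.6% to 24.2%), genes called lower from 0 to 1 (10.7% to 11.9%) and from 2 to 3 (8.4% to 10.6%), and the medians from 0.05 to 0.09 and from 0.01 to 0.06. The call on water that was lost in the lower direction was that of Psme3, without DKO-B replicate 2, WT-B replicate 2 or WT-B replicate 3. Fits with 1 library left out have fewer samples. Counts for nicotine against water and for the interaction stayed at 0 in every alternative run. Same-numbered libraries did not deviate together (correlations of deviations -0.21 to 0.16), so the numbers were not read as pairs; with a replicate block, 12 genes were called higher and 1 lower on water, and 7 and 2 on nicotine, and Psmb1 lost its call in both and Psmb7 on nicotine. Without the filter on low values, Psma8 was also called higher on water, on 5 to 20 reads per DKO-B library and 2 to 6 per WT-B library. Groups of 3 or 4 libraries leave small differences unresolved, and shared sequence leaves the split between Psme2 and Psme2b uncertain.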
